A study of Mus musculus with 71 samples.

Results

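Transcripts of bone marrow progenitors without Pax5 were compared with those of pro-B cells that kept 1 functional Pax5 allele. The Pax5-deficient cells came from Vav-Cre Pax5 fl/fl mice and are called Pax5 Δ/Δ progenitors, with 2 libraries. The heterozygous cells came from Vav-Cre Pax5 fl/+ mice and are called Pax5 +/Δ pro-B cells, also with 2 libraries. Both groups carried Vav-Cre, whose promoter drives recombination of the floxed allele in blood cells from the stem cell stage on, and all mice were on the C57BL/6 background, with no age given for these libraries in the sources used here. The 4 libraries are part of 71 samples in the series, of which 31 are RNA-seq libraries with values on the same genome build and in the same unit. Every gene above 1 TPM (transcript abundance normalised for gene length and library depth) in at least 1 of the 4 libraries was a member, which gave 12746 of 25579 listed genes, and 12471 of these remained once 207 immunoglobulin and 68 histone genes were set aside as the study did. Vav-Cre Pax5 Prd/fl progenitors, with 2 libraries, carry an allele that expresses only the paired (DNA-binding) domain of Pax5 over a deleted allele. They entered the fit to estimate the spread between libraries and are quoted for a few genes.

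Pax5 is a transcription factor of the paired-domain family that is switched on in B-lineage progenitors, after E2A (the product of Tcf3) and Ebf1. It activates genes of the B cell receptor and its signalling pathway and represses genes of other blood lineages, and progenitors without it stop before the committed pro-B cell stage and keep the capacity to form other blood cells. The comparison addresses which genes differ between progenitors that lack Pax5 and pro-B cells that have it.

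The 2 groups were not sorted alike. In the study's methods, the pro-B gate includes B220+Kit+CD2-IgM-IgD- and Pax5-deficient progenitors are Lin-Ly6D+Kit hi B220+, and the labels name the sort of these progenitors an alternative gating without further detail. The gate and the genotype cannot be told apart, and Kit and Ly6d are sort markers whose differences are not results. The Lin antibodies in the methods for these progenitors bind NK1.1, CD3, TCRβ, CD4, CD8a, Ter-119, CD11b, Gr1, Ly6C and CD49b. Genes for these antigens, among them Klrb1c (NK1.1) and the Cd3 genes, are sort markers as well. In bulk RNA, fewer cells of a type and less RNA per cell cannot be told apart either. Between 35925576 and 43784791 reads assigned to genes stood behind each of the 4 libraries. Replicates were close, with a correlation of log2 values across 8992 genes of 0.9971 for Pax5 +/Δ and 0.9939 for Pax5 Δ/Δ, and only 9 and 6 genes with a mean above 5 TPM lay over 3-fold apart within a genotype. Each library held RNA of both sexes, since Xist was at 41.6 and 57.3 TPM in Pax5 +/Δ and 52.2 and 98.3 TPM in Pax5 Δ/Δ libraries and the Y-linked Ddx3y at 7.71 and 5.23 TPM against 5 and 5.68 TPM, and none of 5 sex-linked genes passed the thresholds. Nothing in the sources used here says whether the 2 libraries of a genotype came from separate mice, so p-values measure only the spread between them.

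Pax5 itself was the targeted gene. Its level was 620 and 618 TPM in Pax5 +/Δ and 1129 and 1301 TPM in Pax5 Δ/Δ libraries (log2 difference 0.97 ± 0.15, adjusted p = 3.6e-03), which is higher in the cells without the protein but below the 3-fold threshold. The deletion removes only a part of the gene, so a value summed over all exons does not check it. The labels were set beside lists for each cell type instead. By adjusted p, 20 of 27 tested B cell receptor and signalling genes were lower in Pax5 Δ/Δ and 5 higher. Of 24 tested stem and multipotent progenitor genes, 11 were higher and 3 lower. Of all genes, 21.2% were higher and 19.2% lower by adjusted p. Examples are Cd79a at 3104 and 3151 TPM against 507 and 505 TPM and Flt3 at 21.1 and 28.9 TPM against 355 and 326 TPM. These genes are also among the results below, so they are not independent support for the labels.

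Progenitors without Pax5 differed from Pax5 +/Δ pro-B cells at 655 genes (5.25% of the genes tested), with 372 higher (2.98%) and 283 lower (2.27%). A gene is said here to have risen or fallen when it had an adjusted p under 0.05 (limma, Benjamini-Hochberg over all genes tested), a difference of more than 3-fold and a mean above 5 TPM in 1 genotype. Log2 differences are Pax5 Δ/Δ minus Pax5 +/Δ on the scale of log2(TPM + 0.1) and are given with their standard error, with n = 2 in each genotype. The adjusted p alone was under 0.05 for 2643 higher genes (21.2%) and 2399 lower genes (19.2%), and the median difference of all genes was 0.01. The libraries of the 2 genotypes did not overlap for all 372 genes that rose, beside 39.6% of all genes tested that were higher without overlap, and for all 283 that fell, beside 38.4% (78% in either direction).

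**Figure D1:**
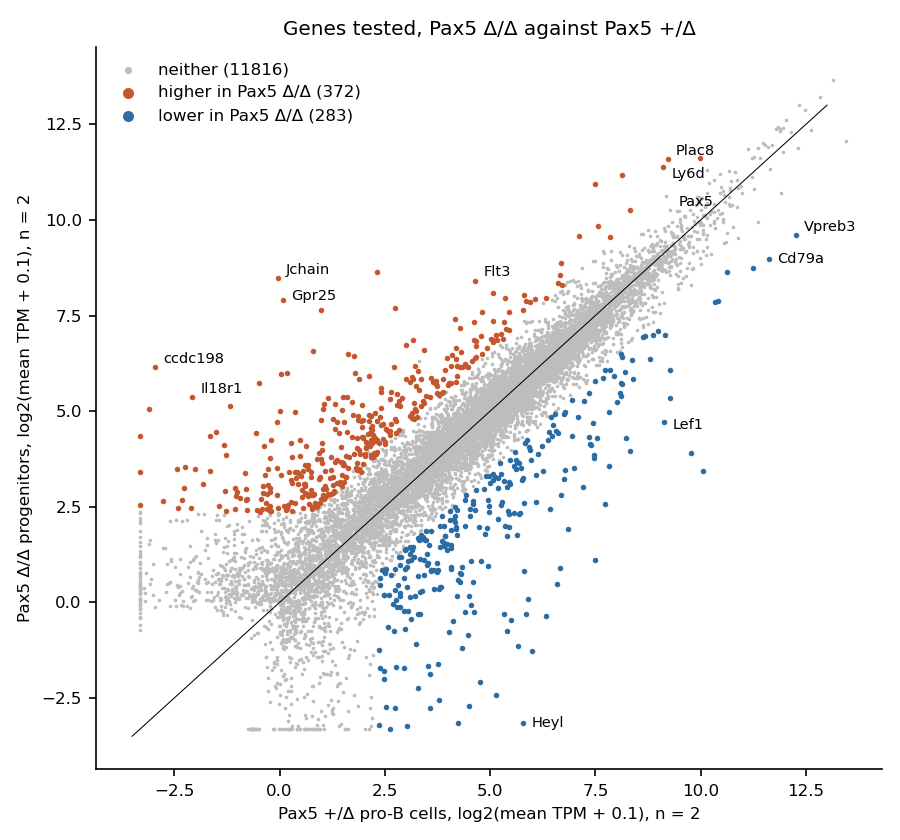
Mean expression of each tested gene in Pax5 +/Δ pro-B cells (horizontal) and Pax5 Δ/Δ progenitors (vertical), both as log2(mean TPM + 0.1) of 2 libraries. Orange points are the 372 genes that rose and blue points the 283 that fell, grey points are the other 11816 genes, and the line marks equal levels.

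Most differences were moderate in size, with a tail of genes that went from near absence to high expression. Of the 372 genes that rose, 289 did so by 3- to 10-fold, 52 by 10- to 30-fold and 31 by over 30-fold, and 66 had a mean below 1 TPM in Pax5 +/Δ pro-B cells. Their summed level was 6491 and 6566 TPM in the Pax5 +/Δ libraries and 33368 and 32620 TPM in the Pax5 Δ/Δ libraries. Of the 283 genes that fell, 197 did so by 3- to 10-fold, 51 by 10- to 30-fold and 35 by over 30-fold, and 50 had a mean below 1 TPM in Pax5 Δ/Δ progenitors. Their summed level was 35780 and 35082 TPM in the Pax5 +/Δ libraries and 5732 and 5969 TPM in the Pax5 Δ/Δ libraries, so that the 2 sets occupied similar shares of the transcriptome, each in its own genotype. Protein-coding genes made up 346 of the genes that rose and 263 of those that fell, with 4 and 14 long non-coding RNAs.

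Vpreb3 and Cd79a, both of the B cell receptor pathway, were the most abundant of the genes that fell. The pre-B cell receptor pairs an immunoglobulin heavy chain with the surrogate light chain (Vpreb1, Vpreb2 and Igll1) and signals through Cd79a and Cd79b and the adaptor Blnk. Of 27 tested members of this list, 8 fell and none rose, beside 2.27% and 2.98% of all genes. By adjusted p alone 20 were lower and 5 higher, beside 19.2% and 21.2% of all genes, with a median of -0.97. Summed over the list, the level was 23899 and 23146 TPM in Pax5 +/Δ and 9515 and 10000 TPM in Pax5 Δ/Δ libraries. Vpreb3, whose product associates with newly made receptor chains, was at 5043 and 4712 TPM in Pax5 +/Δ and 727 and 818 TPM in Pax5 Δ/Δ libraries (-2.66 ± 0.10, adjusted p = 2.3e-05). Cd79a, the Igα signalling chain, was at 3104 and 3151 TPM against 507 and 505 TPM (-2.63 ± 0.08, adjusted p = 1.9e-05). Its partner Cd79b showed no such difference, at 1617 and 1643 TPM against 1396 and 1348 TPM (-0.25 ± 0.08, adjusted p = 0.053), so the 2 chains of the same signalling unit differed in their response. In Pax5 Prd/Δ progenitors, Cd79a reached 1343 and 1494 TPM and Vpreb3 2341 and 2141 TPM, between the levels of the other 2 genotypes and without overlap with either.

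The surrogate light chain moved less, and its parts did not move together. Vpreb1 was at 2621 and 2631 TPM in Pax5 +/Δ and 961 and 1001 TPM in Pax5 Δ/Δ libraries (-1.42 ± 0.08, adjusted p = 6.4e-05). Igll1 was at 3938 and 3676 TPM against 1619 and 1707 TPM (-1.19 ± 0.12, adjusted p = 6.7e-04). Vpreb2, a close copy of Vpreb1 with which it can share reads, went the other way, at 410 and 375 TPM against 616 and 573 TPM (0.60 ± 0.10, adjusted p = 3.5e-03), and none of the 3 reached the 3-fold threshold. Blnk, the adaptor that links the receptor to its downstream enzymes, was also lower without reaching it, at 1558 and 1610 TPM against 698 and 915 TPM (-0.99 ± 0.13, adjusted p = 1.9e-03). Some other members of this list fell further than the surrogate light chain genes, but Cd22 did not. It was at 32.1 and 31.2 TPM against 16.4 and 17.4 TPM (-0.90 ± 0.14, adjusted p = 3.5e-03). Cd72, an inhibitory coreceptor, was at 247 and 207 TPM against 31.5 and 31.7 TPM (-2.84 ± 0.20, adjusted p = 1.4e-04). Siglecg, a sialic acid-binding inhibitory receptor, was at 158 and 135 TPM against 8.35 and 7.53 TPM (-4.19 ± 0.36, adjusted p = 3.4e-04). Fcrla, an Fc receptor-like protein of B cells, went from 104 and 99.3 TPM to 2.09 and 1.43 TPM (-5.80 ± 0.23, adjusted p = 2.8e-05), and Pik3ap1, an adaptor of PI3 kinase in B cells, from 440 and 444 TPM to 78.6 and 87.1 TPM (-2.42 ± 0.11, adjusted p = 3.5e-05).

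Several transcription factors of the B lineage fell as well, while others did not pass the thresholds. Of 21 tested members, 6 fell (Lef1, Ikzf3, Id3, Bach2, Tcf3 and Irf4) and none rose, beside 2.27% and 2.98% of all genes. By adjusted p 14 were lower and 3 higher, beside 19.2% and 21.2% of all genes, with a median of -1.05. Lef1, a partner of β-catenin that pro-B cells express, was at 561 and 557 TPM in Pax5 +/Δ and 15.6 and 36.4 TPM in Pax5 Δ/Δ libraries (-4.55 ± 0.35, adjusted p = 2.1e-04). Ikzf3, which encodes Aiolos, was at 16.7 and 11.5 TPM against 1.11 and 1.33 TPM (-3.40 ± 0.34, adjusted p = 5.4e-04). Tcf3, which encodes the E2A proteins, was at 1541 and 1640 TPM against 403 and 386 TPM (-2.01 ± 0.12, adjusted p = 8.8e-05), and Id3, an inhibitor of E2A binding to DNA, was at 616 and 627 TPM against 68.8 and 65.3 TPM (-3.21 ± 0.08, adjusted p = 1.3e-05). An activator and its inhibitor thus fell together. Bach2, a repressor active in early B cells, was at 88.8 and 89.5 TPM against 18.5 and 21.9 TPM (-2.14 ± 0.11, adjusted p = 5.0e-05), and Irf4 at 91 and 88.4 TPM against 24.3 and 25.4 TPM (-1.85 ± 0.08, adjusted p = 3.2e-05). Ebf1, the factor that acts beside Pax5 in specifying the lineage, stayed expressed at 129 and 148 TPM, against 366 and 351 TPM (-1.37 ± 0.10, adjusted p = 1.7e-04), short of the 3-fold threshold. Ikzf1, which encodes Ikaros, was at 261 and 260 TPM against 242 and 254 TPM (-0.07 ± 0.12, adjusted p = 0.65), and Spi1, which encodes PU.1, at 178 and 183 TPM against 317 and 340 TPM (0.86 ± 0.08, adjusted p = 3.4e-04).

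Genes for V(D)J recombination, the cutting and joining of antigen receptor segments, differed by smaller amounts. None of the 10 tested members passed the thresholds, beside 5.25% of all genes, and by adjusted p 3 were higher (21.2% of all genes) and 4 lower (19.2%). Dntt, the polymerase that adds bases at the joints, was at 3105 and 3142 TPM in Pax5 +/Δ and 3780 and 3906 TPM in Pax5 Δ/Δ libraries (0.30 ± 0.09, adjusted p = 0.036). Rag1, which cuts the DNA together with Rag2, was at 331 and 376 TPM against 213 and 243 TPM (-0.63 ± 0.10, adjusted p = 3.4e-03), and Rag2 at 45.4 and 49 TPM against 18.1 and 19.4 TPM (-1.33 ± 0.10, adjusted p = 1.6e-04). Both Rag genes were thus lower by adjusted p but by less than 3-fold, and in the second experiment described below Rag2 passed the thresholds as lower, with a log2 difference of -1.73.

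The promoters of a gene that fell from high abundance in each of 2 loci and of 2 genes among those that rose most are shown as the sequence around the starts of these genes. Each is the 300 bases from 250 before to 50 after a RefSeq start on GRCm38.p6, in the direction of transcription, and capitals mark CAGGTG, the E-box bound by E2A, or TGTGGT, the RUNX motif, on either strand. The windows are Cd79a at chr7:24897247-24897546 (plus strand), Vpreb3 at chr10:75948050-75948349 (plus), Jchain at chr5:88527848-88528147 (minus) and Il18rap at chr1:40515112-40515411 (plus). For Vpreb3 this start lies within the full span of the gene in the RefSeq gene table (chr10:75943024-75949657).
Cd79a: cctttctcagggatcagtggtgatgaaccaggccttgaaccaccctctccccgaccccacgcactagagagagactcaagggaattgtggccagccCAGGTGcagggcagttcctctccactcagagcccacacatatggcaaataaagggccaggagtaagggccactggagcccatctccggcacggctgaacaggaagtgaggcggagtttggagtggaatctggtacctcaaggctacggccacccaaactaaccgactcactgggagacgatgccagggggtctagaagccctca
Vpreb3: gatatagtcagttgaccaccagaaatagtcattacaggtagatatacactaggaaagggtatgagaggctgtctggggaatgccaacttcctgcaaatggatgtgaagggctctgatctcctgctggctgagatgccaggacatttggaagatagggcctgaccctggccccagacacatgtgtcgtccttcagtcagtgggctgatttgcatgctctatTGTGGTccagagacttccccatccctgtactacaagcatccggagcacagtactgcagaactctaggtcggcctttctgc
Jchain: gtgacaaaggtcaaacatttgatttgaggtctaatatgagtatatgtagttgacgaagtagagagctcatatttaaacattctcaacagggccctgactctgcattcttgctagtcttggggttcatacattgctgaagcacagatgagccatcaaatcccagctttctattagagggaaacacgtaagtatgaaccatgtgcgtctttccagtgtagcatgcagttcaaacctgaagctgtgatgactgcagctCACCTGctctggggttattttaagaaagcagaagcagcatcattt
Il18rap: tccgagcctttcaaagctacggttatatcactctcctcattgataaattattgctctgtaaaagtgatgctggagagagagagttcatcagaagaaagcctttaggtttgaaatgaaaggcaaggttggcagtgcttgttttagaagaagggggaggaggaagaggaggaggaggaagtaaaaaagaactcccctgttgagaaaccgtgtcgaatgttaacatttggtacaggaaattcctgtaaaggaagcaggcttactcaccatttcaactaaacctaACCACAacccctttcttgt

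Cd79a and Jchain held 1 E-box each and Vpreb3 and Il18rap 1 RUNX motif each, and each motif thus occurred at a gene that fell and at a gene that rose. A RefSeq window was matched for 9612 of the 12471 genes, among them 268 of the 372 that rose and 210 of the 283 that fell. The E-box was found in 17.4% of all windows, in 20.9% of those of genes that rose and in 19% of those of genes that fell. The RUNX motif was found in 13% of all windows, in 22.4% of those of genes that rose and in 13.8% of those of genes that fell. The palindrome bound by Ebf1, searched on both strands, was rare, in 1.05% of all windows, in 0.746% of those of genes that rose (2 windows) and in 3.81% of those of genes that fell (8 windows). These shares are descriptions without a test, and the presence of the letters does not show binding.

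Among the 12 genes that rose most, several encode receptors and secreted proteins of other haematopoietic cells. Jchain, the chain that joins secreted IgA and IgM units, was at 0.877 and 0.865 TPM in Pax5 +/Δ and 341 and 368 TPM in Pax5 Δ/Δ libraries (8.51 ± 0.35, adjusted p = 2.8e-05). It was the single member of the 4 tested plasma cell genes that rose. The 2 chains of the interleukin-18 receptor rose together, with Il18r1 at 0.0857 and 0.19 TPM against 37.8 and 44.5 TPM (7.47 ± 0.30, adjusted p = 2.8e-05) and Il18rap at 0.628 and 0.587 TPM against 53.7 and 53.6 TPM (6.25 ± 0.13, adjusted p = 1.3e-05). Gpr25, an orphan G protein-coupled receptor, was at 0.662 and 1.25 TPM against 241 and 237 TPM (7.88 ± 0.28, adjusted p = 2.3e-05). Ifitm1, an interferon-induced membrane protein, was at 5.14 and 4.62 TPM against 432 and 366 TPM (6.32 ± 0.38, adjusted p = 8.4e-05). Ephb4, a receptor tyrosine kinase for ephrin-B ligands, was at 0.407 and 0.273 TPM against 21.7 and 47.7 TPM (6.22 ± 0.37, adjusted p = 8.5e-05). In Pax5 Prd/Δ progenitors Il18rap was at 54.3 and 47.2 TPM and Gpr25 at 112 and 163 TPM, in both cases far above the Pax5 +/Δ libraries.

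The other leading genes were at low levels or at 0 in Pax5 +/Δ pro-B cells. The uncharacterised gene ccdc198 (chromosome 14) was at 0.0585 and 0 TPM against 66.1 and 76.5 TPM (9.14 ± 0.25, adjusted p = 1.3e-05), a count ratio of 2405 (95% interval 431 to 95007, counting error only). Serpinb9d, a serine protease inhibitor, was at 0.0325 and 0 TPM against 17.3 and 48.5 TPM (7.98 ± 0.51, adjusted p = 1.0e-04). Stum was at 2.14 and 1.59 TPM against 180 and 221 TPM (6.68 ± 0.17, adjusted p = 1.3e-05). The genes 5830411N06Rik and Mrgpra1 were listed at 0 in both Pax5 +/Δ libraries, so no fold is given. In the Pax5 Δ/Δ libraries 5830411N06Rik was at 25.7 and 15 TPM and Mrgpra1 at 8.5 and 12.6 TPM. Mcpt8, a granule protease of basophils, was at 0 and 0.501 TPM against 24.2 and 19.4 TPM (6.47 ± 0.75, adjusted p = 1.0e-03), but 23 other pro-B libraries of the series ranged from 1.07 to 141 TPM, which overlaps the Pax5 Δ/Δ values. Most of these 23 libraries are of Pax5 domain mutants, and the 3 wild-type libraries of the second experiment described below, at 2.57, 3.54 and 7.98 TPM, lay below both Pax5 Δ/Δ libraries. For Jchain, in contrast, the same 23 libraries ranged from 0.152 to 27.1 TPM, all below both Pax5 Δ/Δ libraries.

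The genes that fell most were of several kinds, among them a repressor, a calcium channel subunit, a phosphodiesterase and membrane proteins. Heyl, a repressor of the Hairy family that Notch signalling induces in other tissues, was at 59.5 and 50.2 TPM in Pax5 +/Δ and 0 and 0.0243 TPM in Pax5 Δ/Δ libraries (-8.94 ± 0.49, adjusted p = 6.5e-05), a count ratio of 4576 (95% interval 1266 to 37790). Cacna1e, a voltage-gated calcium channel subunit, was at 36.7 and 34.1 TPM against 0.0931 and 0.0824 TPM (-7.56 ± 0.29, adjusted p = 2.3e-05), and Fxyd6, a regulator of the sodium pump, at 59.9 and 67.2 TPM against 0.39 and 0.246 TPM (-7.27 ± 0.36, adjusted p = 4.6e-05). Pde9a, a phosphodiesterase that degrades cyclic GMP, was at 20.5 and 17.2 TPM against 0.026 and 0 TPM (-7.39 ± 0.47, adjusted p = 1.0e-04). All of these were nearly undetected in the progenitors. Alpl, the tissue-nonspecific alkaline phosphatase, was at 70.4 and 90.7 TPM against 0.739 and 0.634 TPM (-6.67 ± 0.30, adjusted p = 3.6e-05), and Asb2, a ubiquitin ligase subunit, at 47.2 and 53.5 TPM against 0.38 and 0.327 TPM (-6.80 ± 0.26, adjusted p = 2.3e-05). Lgr5, a receptor for R-spondins known from intestinal stem cells, was at 14.5 and 13.1 TPM against 0.0913 and 0.0467 TPM (-6.37 ± 0.41, adjusted p = 1.1e-04). The long non-coding RNA Gm20743, Cnn1, Pcp4l1 and Mmrn1 were also among them, with log2 differences of -6.89, -7.28, -6.38 and -6.34.

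**Figure D2:**
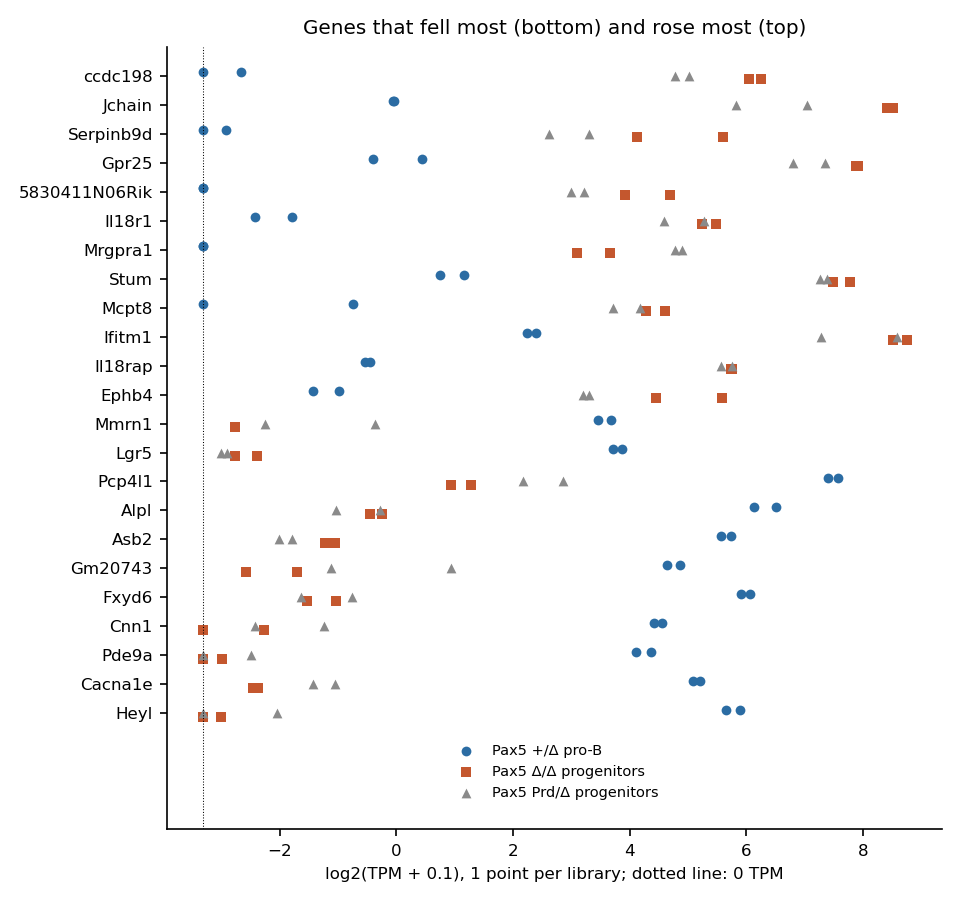
Expression of the genes that rose most and fell most, as log2(TPM + 0.1) with 1 point per library for Pax5 +/Δ pro-B cells (circles), Pax5 Δ/Δ progenitors (squares) and Pax5 Prd/Δ progenitors (triangles). The circles and squares are apart for every gene shown, and the dotted line marks 0 TPM, where both Pax5 +/Δ libraries lie for 5830411N06Rik and Mrgpra1.

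The T cell and innate lymphoid programme rose in part, while Cd3e, Cd3d and Cd3g of the T cell receptor complex were not detected above 1 TPM. Of 28 tested members, 10 rose, among them both interleukin-18 receptor chains, and none fell, beside 2.98% and 2.27% of all genes. By adjusted p 20 were higher and 3 lower, beside 21.2% and 19.2% of all genes, with a median of 1.56. The other 9 members, among them Bcl11b, Tox2, Zbtb16, Cd3e, Cd3d, Cd3g, Ptcra and Rora, did not exceed 1 TPM in any of the 4 libraries. Il2ra, a receptor chain for interleukin-2 that marks early T cell and pre-B cell stages, was at 2.45 and 1.45 TPM in Pax5 +/Δ and 20.9 and 45.2 TPM in Pax5 Δ/Δ libraries (3.95 ± 0.38, adjusted p = 4.9e-04). Cd7, a surface protein of T and natural killer cells, was at 0.788 and 0.942 TPM against 31.4 and 21.3 TPM (4.75 ± 0.23, adjusted p = 4.2e-05). The regulators Id2, which restrains E proteins in innate lymphoid cells, and Nfil3, needed for natural killer cells, also rose. Id2 was at 5.1 and 3.41 TPM against 26 and 27 TPM (2.64 ± 0.23, adjusted p = 3.2e-04), and Nfil3 at 1.3 and 1.86 TPM against 7.72 and 7.38 TPM (2.20 ± 0.23, adjusted p = 6.3e-04). Of the signalling genes of T cells in this list, some rose and others did not, with the adaptor Grap2 at 15.7 and 15.6 TPM against 76.4 and 90 TPM (2.40 ± 0.11, adjusted p = 3.5e-05) and the receptor chain Cd247 at 3.68 and 4.45 TPM against 20.8 and 15.9 TPM (2.14 ± 0.19, adjusted p = 3.6e-04) among those that rose. The adaptor Lat was at 172 and 128 TPM against 96.4 and 117 TPM (-0.48 ± 0.26, adjusted p = 0.19) and the kinase Zap70 at 19.7 and 15.1 TPM against 18 and 14.9 TPM (-0.08 ± 0.18, adjusted p = 0.76), and neither passed the test.

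Of the 3 tested Notch receptors, Notch1 and Notch2 were higher by less than 3-fold and Notch3 showed no such difference. Notch1, the receptor that directs progenitors to the T cell lineage, was at 114 and 126 TPM in Pax5 +/Δ and 328 and 352 TPM in Pax5 Δ/Δ libraries (1.50 ± 0.10, adjusted p = 1.0e-04). Notch2 was at 13.1 and 14.4 TPM against 34.9 and 37.2 TPM (1.39 ± 0.11, adjusted p = 2.7e-04), and Notch3 at 1.18 and 1.18 TPM against 1.32 and 1.03 TPM (-0.01 ± 0.29, adjusted p = 0.98). The Notch target Hes1 did not pass the test, at 221 and 213 TPM against 173 and 158 TPM (-0.39 ± 0.14, adjusted p = 0.062), and Dtx1, a further Notch target, was lower at 4.58 and 2.77 TPM against 0.449 and 0.756 TPM (-2.42 ± 0.43, adjusted p = 5.6e-03), with a mean under the limit of 5 TPM. Tcf7, a T lineage factor downstream of Notch1, was at 40.1 and 42.6 TPM against 97 and 116 TPM (1.36 ± 0.17, adjusted p = 1.4e-03), Gata3 only at 0.276 and 0.479 TPM against 1.42 and 1.3 TPM (1.65 ± 0.39, adjusted p = 0.016), and the kinase Lck at 119 and 108 TPM against 344 and 321 TPM (1.55 ± 0.08, adjusted p = 6.0e-05). Notch1, Notch2 and Tcf7 were thus higher by adjusted p but below the 3-fold threshold. In the second experiment described below Notch1 and Notch2 passed it, with log2 differences of 2.04 and 1.70, as did Lck with 2.25, and Dtx1 passed it as lower with -2.31. Of the mature T cell markers, 1 of 4 tested rose (Cd6) and none did without Pax5 Δ/Δ replicate 1, and their summed level was between 12.4 and 14.7 TPM in all 4 libraries.

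Genes of stem and multipotent cells rose in part. Of 24 tested members, 7 rose and 2 fell, beside 2.98% and 2.27% of all genes. By adjusted p 11 were higher and 3 lower, beside 21.2% and 19.2% of all genes, with a median of 0.58. Flt3, a cytokine receptor of lymphoid-primed progenitors, was at 21.1 and 28.9 TPM in Pax5 +/Δ and 355 and 326 TPM in Pax5 Δ/Δ libraries (3.78 ± 0.15, adjusted p = 2.3e-05). Ly6a, which encodes the stem cell antigen Sca-1, was at 19.3 and 16.6 TPM against 155 and 187 TPM (3.24 ± 0.18, adjusted p = 6.7e-05). Emb, an adhesion-linked membrane protein, was at 22.8 and 26 TPM against 154 and 166 TPM (2.71 ± 0.14, adjusted p = 5.2e-05), and Cd34 remained low at 0.104 and 0.16 TPM against 5.35 and 5.61 TPM (4.60 ± 0.35, adjusted p = 2.1e-04). The transcription factors Lmo2 and Runx2 also rose, with Lmo2 at 63.8 and 71 TPM against 214 and 273 TPM (1.84 ± 0.16, adjusted p = 3.1e-04). The members that fell were Gfi1, a zinc finger repressor, at 58.2 and 59.2 TPM against 20.4 and 17.6 TPM (-1.62 ± 0.18, adjusted p = 9.2e-04), and the hyaluronan receptor Cd44 at 21.8 and 20.9 TPM against 7.98 and 5.71 TPM (-1.65 ± 0.18, adjusted p = 7.6e-04). Neither passed the thresholds without Pax5 Δ/Δ replicate 2, while the count that rose stayed at 7. Il7r, the receptor that early B cells depend on, was at 156 and 138 TPM against 184 and 241 TPM (0.52 ± 0.16, adjusted p = 0.04).

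Dendritic cell genes had the highest median of the lists, 2.26, with 6 of 15 tested members risen and none fallen. The shares of all genes were 2.98% and 2.27%. Siglech, a receptor of plasmacytoid dendritic cells, was at 0.385 and 0.0564 TPM in Pax5 +/Δ and 23.5 and 17.3 TPM in Pax5 Δ/Δ libraries (6.20 ± 0.50, adjusted p = 2.5e-04). Cox6a2, a mitochondrial subunit enriched in those cells, was at 3.42 and 3.19 TPM against 107 and 67.4 TPM (4.64 ± 0.21, adjusted p = 3.5e-05). Tlr7, a sensor of single-stranded RNA, was at 1.96 and 1.88 TPM against 14.4 and 17.3 TPM (2.98 ± 0.18, adjusted p = 9.0e-05), and Pacsin1, an adaptor of membrane trafficking, at 1.14 and 1.36 TPM against 8.25 and 8.74 TPM (2.67 ± 0.18, adjusted p = 1.4e-04). The list also holds Runx2 and Ly6d, with Ly6d at 550 and 551 TPM against 3007 and 2303 TPM, which was a sort marker of the progenitors. Ly6d is among the 6 that rose, and its log2 difference of 2.26 is itself the median of the list. The count and the median thus both include a sort marker.

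Myeloid genes rose together with neutrophil markers. Of 23 tested myeloid members, 10 rose and none fell, beside 2.98% and 2.27% of all genes, with a median of 1.74. Of the 10, 4 (S100a8, S100a9, Camp and Ltf) are also neutrophil markers. Ctsg, a granule protease of myeloid precursors, was at 1.3 and 0.771 TPM in Pax5 +/Δ and 61.5 and 64.9 TPM in Pax5 Δ/Δ libraries (5.84 ± 0.27, adjusted p = 3.7e-05). Mpo, the peroxidase of the same granules, was at 4.96 and 5.22 TPM against 33.7 and 24.1 TPM (2.46 ± 0.23, adjusted p = 4.2e-04), and Cd33, a myeloid sialic acid receptor, at 1.62 and 2.15 TPM against 13.5 and 13.4 TPM (2.78 ± 0.28, adjusted p = 6.2e-04). In the 3 wild-type libraries of the second experiment Mpo was at 26.7, 29.8 and 72 TPM, and its log2 difference there was 0.66 (adjusted p = 0.64). Ctsg was at 4.66, 3.36 and 9.91 TPM in them and rose there (3.62). The 23 other pro-B libraries ranged from 3.28 to 970 TPM for Mpo and 1.34 to 156 TPM for Ctsg, overlapping the Pax5 Δ/Δ values. For Cd33 they ranged from 1.86 to 11.5 TPM, below both. The receptor for macrophage growth factor, Csf1r, was at 1.25 and 1.35 TPM against 5.05 and 4.93 TPM (1.86 ± 0.20, adjusted p = 7.6e-04), which is more than 3-fold, but its mean of 4.99 TPM lay just under the limit of 5 TPM. All 8 neutrophil markers were tested and 7 rose, and their summed level was 112 and 194 TPM in the Pax5 +/Δ and 765 and 364 TPM in the Pax5 Δ/Δ libraries, so that the gap between the 2 Pax5 Δ/Δ libraries was larger than that between the nearest libraries of the 2 genotypes. Single libraries decided these calls. Without Pax5 +/Δ replicate 1, none of the 8 neutrophil markers and 4 of the 23 myeloid genes rose, and without Pax5 Δ/Δ replicate 1 the counts were 1 and 5, whereas without Pax5 Δ/Δ replicate 2 they were 6 and 10. S100a9, a calcium-binding protein of neutrophils, was for example at 16.4 and 34.4 TPM against 157 and 72.3 TPM (2.16 ± 0.44, adjusted p = 9.0e-03). None of the 8 passed the thresholds in the second experiment described below, where 4 of the 23 myeloid members rose, and the part of neutrophil RNA in the myeloid result was not tested. By adjusted p alone, 21.2% of all genes were higher and 19.2% lower. None of 7 tested macrophage markers passed the thresholds (2 fell without Pax5 Δ/Δ replicate 2), with 1 higher and 3 lower by adjusted p, and a summed level of 55.8 and 36.1 TPM against 18.9 and 28.1 TPM.

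The remaining marker lists had from 2 to 8 tested members each, and 5.25% of all genes passed the thresholds. Of erythroid markers 8 were tested and none passed the thresholds, with a summed level of 278 and 308 TPM against 631 and 636 TPM that was carried by the carbonic anhydrase Car2, at 218 and 201 TPM against 540 and 589 TPM (1.43 ± 0.10, adjusted p = 1.3e-04). The globin genes Hba-a1, Hba-a2 and Hbb-bs of this list were at 0 TPM in every library, so they carry no information here. Of 2 megakaryocyte and 4 stromal or endothelial markers tested, none passed, although 1 megakaryocyte marker rose without Pax5 Δ/Δ replicate 2. Natural killer markers summed to 21.5 and 19 TPM against 45.8 and 35.8 TPM, with Nkg7, a granule protein, risen and Klrb1c fallen among 4 tested. Klrb1c encodes the Lin antigen NK1.1, so its difference is that of a sort marker, and its call was lost without Pax5 Δ/Δ replicate 2. Of 6 markers of immature and mature B cells tested, with a median of -2.80, Cd40, a costimulatory receptor, fell from 9.14 and 8.04 TPM to 0.753 and 0.524 TPM (-3.57 ± 0.30, adjusted p = 2.9e-04), and Il2ra rose, with 2 that rose when Pax5 Δ/Δ replicate 1 was left out.

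MHC class II genes moved in both directions. The list had 10 tested members with a median of 0.40, of which 1 rose and 2 fell, beside 2.98% and 2.27% of all genes. By adjusted p 4 were higher and 3 lower, beside 21.2% and 19.2% of all genes. H2-Ab1, a chain of the classical I-A molecule that binds peptide, was at 227 and 236 TPM in Pax5 +/Δ and 73.8 and 60.7 TPM in Pax5 Δ/Δ libraries (-1.79 ± 0.12, adjusted p = 1.1e-04). H2-Ob, a chain of the H2-O inhibitor of peptide loading, fell alike, from 113 and 107 TPM to 32.5 and 30.3 TPM (-1.81 ± 0.22, adjusted p = 1.4e-03). The H2-M chains that load peptide went the other way, with H2-DMb2 at 4.86 and 5.16 TPM against 18.9 and 16.9 TPM (1.82 ± 0.16, adjusted p = 3.5e-04) and H2-DMa at 33.2 and 35 TPM against 102 and 84.7 TPM (1.44 ± 0.12, adjusted p = 2.7e-04). H2-DMa and H2-DMb1 stayed below the 3-fold threshold, and Cd74, the invariant chain, was at 68.1 and 49.6 TPM against 149 and 172 TPM (1.46 ± 0.35, adjusted p = 0.018).

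Among 26 tested cytokine and chemokine receptors, 2 rose (Flt3 and Cxcr3) and 1 fell, beside 2.98% and 2.27% of all genes. By adjusted p 16 were higher and 3 lower, beside 21.2% and 19.2% of all genes. Cxcr3, a chemokine receptor, was at 1.1 and 1.87 TPM in Pax5 +/Δ and 12.4 and 11.7 TPM in Pax5 Δ/Δ libraries (2.98 ± 0.29, adjusted p = 5.1e-04), and the TNF receptor family member Tnfrsf19, which fell, was at 129 and 125 TPM against 8.36 and 14.2 TPM (-3.53 ± 0.29, adjusted p = 2.8e-04). Of 20 adhesion and migration genes, 2 rose and 4 fell, beside the same 2.98% and 2.27%. By adjusted p 5 were higher and 8 lower, beside 21.2% and 19.2% of all genes. The count that rose was 1 without Pax5 +/Δ replicate 2 or Pax5 Δ/Δ replicate 2. The integrin chain Itgb7, which pairs with α4 for homing to the gut, was at 0.664 and 0.785 TPM against 13 and 9.18 TPM (3.74 ± 0.22, adjusted p = 8.1e-05), and Itgb3 was the other that rose. Sdc4, a heparan sulphate proteoglycan, was at 276 and 272 TPM against 88.6 and 92.4 TPM (-1.60 ± 0.07, adjusted p = 3.5e-05), and the neighbouring ectoenzyme genes Bst1 and Cd38 fell together, with Bst1 at 123 and 125 TPM against 38.6 and 39.1 TPM (-1.67 ± 0.09, adjusted p = 6.5e-05).

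Cell cycle genes were mostly lower by amounts below the 3-fold threshold. Of 37 tested members, 6 were higher and 21 lower by adjusted p, beside 21.2% and 19.2% of all genes, and the median was -0.66. Only Ccnd1 rose and only E2f2 fell (2 genes without replicate 2 of either genotype), beside 2.98% and 2.27% of all genes. E2f2, a transcription factor of the G1 to S transition, was at 334 and 334 TPM in Pax5 +/Δ and 56.8 and 58.3 TPM in Pax5 Δ/Δ libraries (-2.54 ± 0.18, adjusted p = 1.4e-04). The D-type cyclins, which start the cycle in response to growth signals, moved in opposite directions. Ccnd3 was at 1476 and 1526 TPM against 668 and 689 TPM (-1.15 ± 0.20, adjusted p = 5.6e-03), while Ccnd2 was at 130 and 127 TPM against 335 and 326 TPM (1.36 ± 0.12, adjusted p = 3.5e-04) and Ccnd1 at 4.75 and 5.95 TPM against 23.9 and 26.6 TPM (2.22 ± 0.26, adjusted p = 1.0e-03). Of 14 mitotic and S-phase members, a subset chosen after the values were seen, 13 were lower by adjusted p and none fell past the thresholds. Mki67, a marker of cycling cells, was at 217 and 204 TPM against 81.8 and 97.4 TPM (-1.24 ± 0.11, adjusted p = 3.1e-04), and the replication helicase genes Mcm2 to Mcm7 had a median of 0.41 with 2 of 6 higher by adjusted p.

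Glycolysis, apoptosis and stress genes were counted against the 5.25% of all genes that passed the thresholds. By adjusted p alone, 21.2% of all genes were higher and 19.2% lower. None of 22 glycolysis and glucose uptake genes passed, with 9 higher and 2 lower by adjusted p and a median of 0.33. Of 13 apoptosis regulators, Bcl2l1, which encodes the survival protein Bcl-xL, was the single member that fell (2 without Pax5 +/Δ replicate 1), at 97.9 and 98.2 TPM in Pax5 +/Δ and 21 and 21.7 TPM in Pax5 Δ/Δ libraries (-2.20 ± 0.08, adjusted p = 2.3e-05). Of 23 immediate-early and stress genes, 3 fell and none rose, with 13 lower and 1 higher by adjusted p and a median of -0.95. Fos was at 11.4 and 12.4 TPM against 1.68 and 1.64 TPM (-2.76 ± 0.13, adjusted p = 3.7e-05), Egr1 at 26.1 and 27.2 TPM against 3.18 and 4.5 TPM (-2.78 ± 0.18, adjusted p = 1.2e-04), and Jund at 256 and 303 TPM against 77.1 and 92.1 TPM (-1.72 ± 0.17, adjusted p = 6.1e-04).

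**Figure D3:**
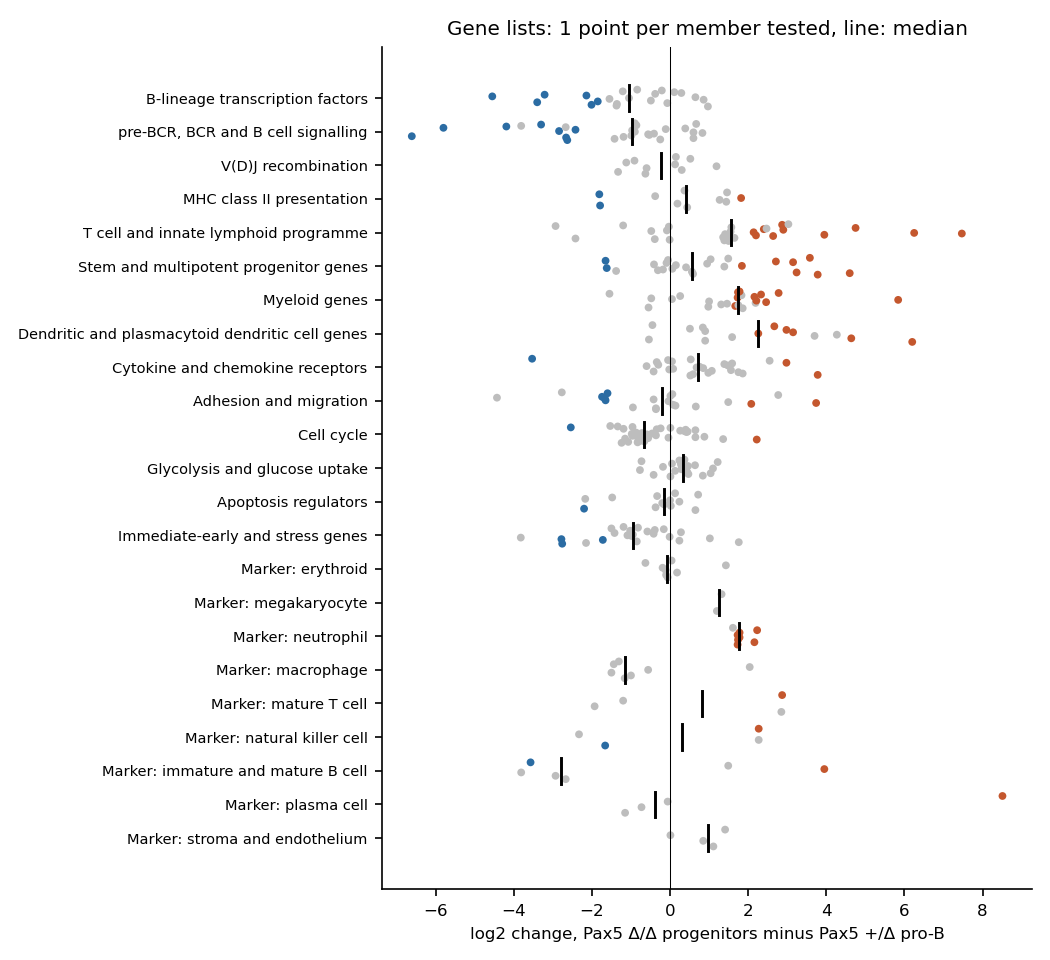
Log2 difference (Pax5 Δ/Δ minus Pax5 +/Δ) of every tested member of 23 gene lists, with 1 point per gene and a black line at the median of the list. Orange points rose, blue points fell and grey points did not pass the thresholds. Points lie mainly left of 0 for B-lineage factors (median -1.05) and receptor signalling (-0.97) and right of 0 for dendritic cell (2.26), myeloid (1.74) and T cell and innate lymphoid genes (1.56). The dendritic cell median is the value of Ly6d, a sort marker.

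Over all lists, with each gene counted once, 331 of 391 members were tested, of which 42 rose and 29 fell, and the median was 0.01. The lists thus account for a minority of the genes that changed, and some of the most abundant were outside them. Plac8, Myl4, Myl10 and Smarca4 were chosen after their values were seen. Plac8, a small cysteine-rich protein of haematopoietic cells, was at 583 and 603 TPM in Pax5 +/Δ and 3043 and 3077 TPM in Pax5 Δ/Δ libraries (2.37 ± 0.10, adjusted p = 3.2e-05). The myosin light chains Myl4 and Myl10 rose together, with Myl4 at 317 and 245 TPM against 2361 and 2244 TPM (3.05 ± 0.19, adjusted p = 9.7e-05) and Myl10 at 220 and 140 TPM against 1900 and 2003 TPM (3.47 ± 0.21, adjusted p = 9.6e-05). Smarca4, the ATPase of the BAF chromatin remodelling complex, was at 2367 and 2481 TPM against 413 and 448 TPM (-2.49 ± 0.08, adjusted p = 1.9e-05).

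Genes that changed in the same direction often lay next to each other on the chromosome. Of the 363 genes that rose and had a position, 63 (17.4%) had a direct neighbour among the tested genes that also rose, whereas 5.31% of 11945 other tested genes lay next to a gene that rose. Of 280 genes that fell, 53 (18.9%) had such a neighbour, against 4.15% of 12028 other genes. No test was made of these shares, and neighbours that are paralogues or overlap can share reads. The longest run was Dapk1, 4930486L24Rik, Ctla2b and Ctla2a at chr13:60601723-60936625, all of which rose. Il18r1, Il18rap and Slc9a2 at chr1:40465552-40768885 rose together and place both receptor chains described above side by side. Chchd10, Gm867 and Vpreb3 at chr10:75933130-75949657 fell together, as did Grb7 and Ikzf3, Id3 and E2f2, and Cd72 and Sit1. Gpr25 lies beside Inava, and Mcpt8 beside Ctsg.

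The same deletion was measured a second time in libraries that share none with the 4 above. Vav-Cre Pax5 fl/fl progenitors (2 libraries), sorted as Lin-Ly6D+Kit hi B220+, were set against Pax5 +/+ pro-B cells (3 libraries, whose labels name no Vav-Cre) by the same fit, in which 523 genes rose (4.02%) and 445 fell (3.42%) of 13026 tested. The series holds 5 Pax5 +/+ pro-B libraries, and the 3 used are those with the read length of the progenitors. Of the 372 genes that rose against Pax5 +/Δ, 362 (97.3%) had the same sign and 308 (82.8%) also rose against Pax5 +/+, which is 58.9% of the 523. Of the 283 genes that fell, 282 were tested, 281 (99.6%) had the same sign and 239 (84.8%) also fell, which is 53.7% of the 445. With all 5 Pax5 +/+ libraries and a term for read length, the shares with the same sign were also 97.3% and 99.6%. The median difference of the genes that rose was 2.31 in the first and 2.52 in the second experiment, and of those that fell -2.54 and -2.57. Cd79a differed by -2.85 and Vpreb3 by -2.74 in the second experiment, Jchain by 8.63 and Il18rap by 6.12. Genes that passed the thresholds in only 1 of the experiments are not shown to differ between them.

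**Figure D4:**
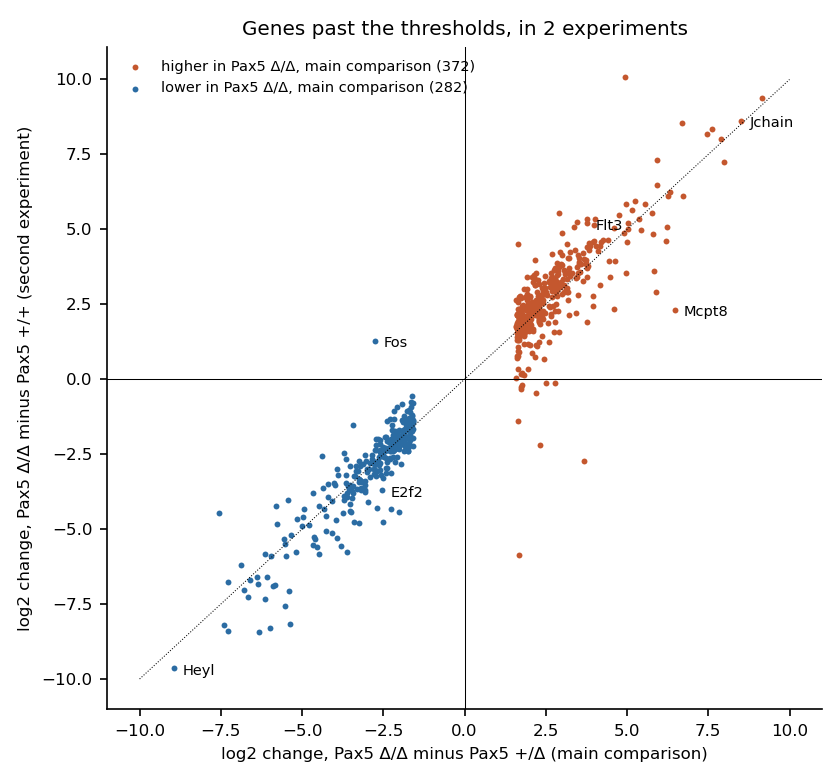
Log2 difference of the genes that rose (372, orange) or fell (282, blue) in Pax5 Δ/Δ against Pax5 +/Δ (horizontal) plotted against their difference in Pax5 Δ/Δ against Pax5 +/+ of the second experiment (vertical). Points near the dotted line have equal differences in both, and Fos is the single gene that fell in the first (-2.76) and lay above 0 in the second (1.27).

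Tests of the difference between the 2 experiments gave 35 of 12471 genes (0.281%) an adjusted p under 0.05, of which 9 were among the 655. With 2 or 3 libraries per genotype, genes that did not pass are not shown to be alike in both experiments. Of the 10 genes that rose with the opposite sign in the second experiment, Camp, Lcn2 and Ngp are neutrophil markers, and Epx, Prg2 and Chil3, named after their values were seen, encode granule or secreted proteins of eosinophils and macrophages. The other 4, also named after their values were seen, are Gm25500, the miRNA genes Mir181b-1 and Mir7079 and the small nucleolar RNA gene Snord1b, and small RNAs are measured poorly in a library of poly(A) RNA. Gm25500 was the single gene of these 10 that passed the thresholds in the other direction. Mcpt8 differed by 6.47 in the first and 2.31 in the second experiment, with a difference between the experiments of 4.16 ± 1.08 (adjusted p = 0.25).

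Several mitotic genes differed between the experiments in size and Fos in direction. The 14 mitotic and S-phase members were a subset chosen after the values were seen, and that choice shaped the counts. Of them, 13 fell past the thresholds against Pax5 +/+ and none against Pax5 +/Δ. Other cell cycle genes varied. Pclaf, Rrm2 and E2f2 also fell against Pax5 +/+, while Mcm2 to Mcm7, Pcna and E2f1 did not pass the thresholds in either experiment. The difference between the experiments had an adjusted p under 0.05 for Aurkb, Ccna2, Kif11 and Ndc80 of the 14. Ccna2, a cyclin of S phase and mitosis, was at 175 and 171 TPM against 81.3 and 83.2 TPM in the first experiment and at 276, 203 and 217 TPM against 28.9 and 33.9 TPM in the second. Fos was at 11.4 and 12.4 TPM in Pax5 +/Δ and 1.68 and 1.64 TPM in Pax5 Δ/Δ libraries, but at 3.76, 5.59 and 5.26 TPM in Pax5 +/+ and 12.4 and 11 TPM in the Pax5 Δ/Δ libraries of the second experiment. The low Fos of the first experiment was thus seen in only 1 of the 2 sets of Pax5 Δ/Δ libraries.

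**Figure D5:**
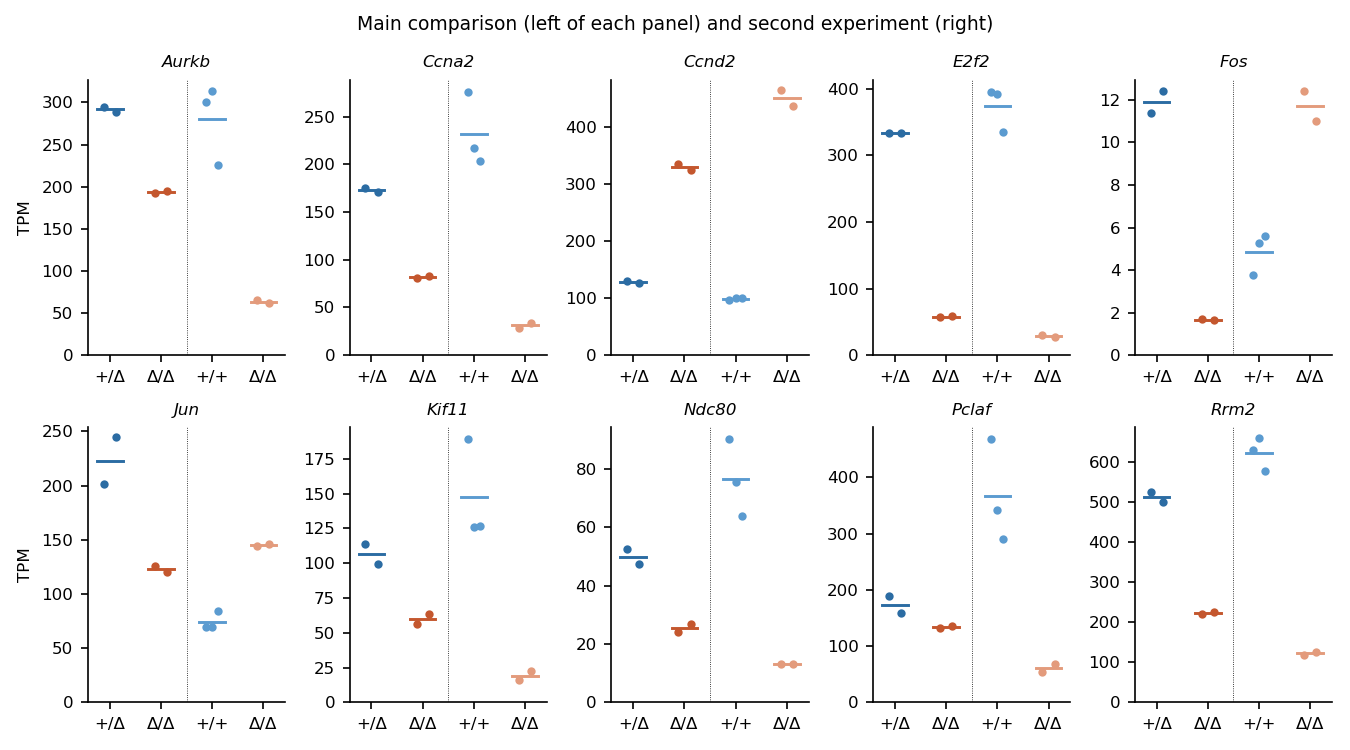
TPM per library of 10 list members whose difference was not the same in both experiments, with Pax5 +/Δ and Pax5 Δ/Δ left of the dotted line in each panel (2 libraries each) and Pax5 +/+ (3 libraries) and the Pax5 Δ/Δ libraries of the second experiment (2) right of it. Bars are means and every axis starts at 0. Aurkb, Ccna2, Kif11, Ndc80, Pclaf and Rrm2 fall further in the second experiment, and Fos and Jun go in opposite directions.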

How the data were processed

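RNA was measured by RNA-seq of poly(A) RNA (NEBNext Ultra II libraries) from sorted bone marrow cells. Per the study's methods, the authors trimmed single reads, aligned them with STAR (version 2.4.2a in the submitters' processing notes) to GRCm38/mm10 and counted reads on RefSeq genes with Rsubread. The deposited values are TPM per gene, which normalise for gene length and depth and are relative, so that a rise of some genes lowers the share of the rest. The TPM columns of this experiment carry no gene names and were named by the row order of the other libraries. The deposited raw counts of 2 libraries checked this order: the ratio of TPM to counts gave the same gene length within 1% in 100% of 14405 genes, and in 1.511% after a shift by 1 gene. The same gene lengths turned TPM back into whole reads (100% of values within 0.02 of a whole number), which gave the depth and the count tests.

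Genes above 1 TPM in at least 1 of the 4 libraries were tested on log2(TPM + 0.1) with limma 3.58.1 in R 4.3.3 (lmFit, eBayes with trend, two-sided, Benjamini-Hochberg adjustment), with genotype as the only term and the 2 Pax5 Prd/fl libraries included (6 libraries, 3 residual degrees of freedom). The study tested counts with DESeq2, so edgeR 4.0.16 and DESeq2 1.42.0 on recovered reads were alternatives, beside other pseudocounts, filters, scalings, a replicate block and the omission of each library. In simulated data of 11887 genes made for Pax5 fl/fl against fl/+, the limma test recovered 49 of 50 genes changed 4-fold, 50 of 50 changed 8-fold and 50 of 50 changed 16-fold. It called 0 unchanged genes past all the thresholds. The simulated libraries all had the same spread around the Pax5 +/Δ means. In the data the SD of the log2 difference between replicates was 0.131 for Pax5 +/Δ, 0.187 for Pax5 Δ/Δ and 0.298 for Pax5 Prd/Δ. The simulation thus gives no error rate for these data or for counts by adjusted p alone. Counts leave out immunoglobulin and histone genes, as in the study.

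Named genes are the 12 that rose most and the 12 that fell most with libraries that do not overlap, the members of 25 gene lists, and Pax5, of which a few are not reported here. Others are said to have been chosen after their values were seen. The members and lists were chosen with earlier results of these data known. ChIP-seq and ATAC-seq data and RNA-seq on other genome builds were not used here. Promoters are from RefSeq on GRCm38.p6.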

Additional observations from a re-analysis of the deposited data

Results flagged for a closer look

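For 10 members of the gene lists the difference between Pax5 Δ/Δ progenitors and pro-B cells was not the same in the 2 experiments, by a test of the difference itself (interaction term in limma over the libraries of both). Values below are the log2 difference against Pax5 +/Δ minus that against Pax5 +/+. They are positive for genes of S phase and mitosis, which were reduced less in the first experiment: Aurkb 1.54 ± 0.21 (adjusted p = 0.038), Ccna2 1.80 ± 0.21 (adjusted p = 0.022), E2f2 1.17 ± 0.15 (adjusted p = 0.033), Kif11 2.08 ± 0.31 (adjusted p = 0.049), Ndc80 1.54 ± 0.22 (adjusted p = 0.049), Pclaf 2.22 ± 0.30 (adjusted p = 0.038) and Rrm2 1.14 ± 0.13 (adjusted p = 0.022). Pclaf, a PCNA-binding protein, was at 189 and 158 TPM in Pax5 +/Δ, 133 and 136 TPM in Pax5 Δ/Δ, 468, 290 and 341 TPM in Pax5 +/+ and 53.4 and 67.7 TPM in the second set of Pax5 Δ/Δ libraries. Its controls were higher and its progenitors lower in the second experiment. Ccnd2 differed in the other direction, by -0.82 ± 0.12 (adjusted p = 0.045), being higher in the progenitors in both.

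The immediate-early gene Fos had the largest gap of the 10, at -4.03 ± 0.31 (adjusted p = 3.2e-03) and Jun differed by -1.82 ± 0.18 (adjusted p = 0.012). Jun was at 201 and 245 TPM in Pax5 +/Δ and 126 and 120 TPM in Pax5 Δ/Δ libraries, at 69.1, 84.6 and 69.8 TPM in Pax5 +/+ and at 144 and 146 TPM in the second set of Pax5 Δ/Δ libraries. Pax5 Prd/Δ progenitors, of the same experiment as the first set, had Jun at 1080 and 942 TPM and Fos at 47.9 and 51 TPM, above all the other libraries named here. The control genotype, the named gating and the sequencing runs all differ between the experiments and cannot be told apart.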

How the results depend on the processing

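The counts of 372 genes that rose and 283 that fell stayed within 1.5 times under pseudocounts of 0.01 (374 and 288) and 1 (315 and 248), filters above 0 and above 5 TPM, the 4 libraries alone, no trend of the spread, median centring, quantile normalization (345 and 292), and edgeR (370 and 285) and DESeq2 (363 and 286) on recovered reads. With edgeR 360 of the 372 and 282 of the 283 were shared. Leaving out 1 library gave 351 to 361 and 270 to 286. A 2-fold threshold gave 691 and 578, and the adjusted p alone 2643 and 2399. Of 96 named genes that rose or fell, 80 kept the call in every alternative, none of the 24 leading genes lost it and none of the 250 with an adjusted p under 0.05 changed sign. The 16 that lost it in at least 1 were mainly genes close to 3-fold, led by Camp and Lcn2 (5 alternatives each). They include all 7 neutrophil markers that rose and the myeloid gene Prtn3. Some were further from 3-fold, such as S100a9 (4.47-fold) and Cd6 (7.29-fold).

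Same-numbered Pax5 +/Δ and Pax5 Δ/Δ libraries deviated in opposite directions (correlation -0.217 over 8992 genes). The correlation with Pax5 Prd/Δ libraries was 0.116 for Pax5 +/Δ and 0.065 for Pax5 Δ/Δ. Each genotype has only 2 libraries, so these values cannot decide whether the replicate numbers pair the libraries. With the replicate block 375 genes rose and 284 fell, and with crossed pairs, an alternative chosen after seeing the data, 371 and 284. With 2 libraries per genotype, differences below 3-fold and genes under 5 TPM are the least certain, and the intervals of count ratios cover counting error only.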

Other observations

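Immunoglobulin genes, which were set aside in the counts above, moved in both directions, and the single genes given here were chosen after their values were seen. Of 207 tested, 13 rose and 21 fell, beside 2.98% and 2.27% of the 12471 genes counted above. Of the immunoglobulin genes that fell, 20 were variable segments of the heavy chain locus. Ighv2-6 was at 9.36 and 17 TPM in Pax5 +/Δ and 0.307 and 0.157 TPM in Pax5 Δ/Δ libraries (-5.30 ± 0.43, adjusted p = 2.7e-04). Of the 13 genes that rose, 11 carry a kappa or lambda light chain symbol. The lambda constant gene Iglc3 was at 7.25 and 3.1 TPM in Pax5 +/Δ and 135 and 222 TPM in Pax5 Δ/Δ libraries (5.16 ± 0.40, adjusted p = 2.2e-04) and Iglc1, a further lambda constant gene, at 17.3 and 8.32 TPM in Pax5 +/Δ and 56.5 and 127 TPM in Pax5 Δ/Δ libraries (2.81 ± 0.44, adjusted p = 3.3e-03). Iglc2, a close copy of Iglc3 with which it can share reads, fell, at 7.7 and 4.57 TPM in Pax5 +/Δ and 0.615 and 0.63 TPM in Pax5 Δ/Δ libraries (-3.06 ± 0.36, adjusted p = 1.1e-03). The kappa variable segment Igkv9-124 was at 2.9 and 2.38 TPM in Pax5 +/Δ and 39.3 and 41.3 TPM in Pax5 Δ/Δ libraries (3.89 ± 0.21, adjusted p = 6.0e-05). Segments of these families are alike, so reads that match several of them can be misplaced or lost, and single segments are uncertain. Of 68 histone genes, 5 fell and none rose, beside 2.27% and 2.98% of the 12471 genes, with a median of -0.87. Hist3h2ba was at 63.5 and 80.1 TPM in Pax5 +/Δ and 10.1 and 11.7 TPM in Pax5 Δ/Δ libraries (-2.70 ± 0.31, adjusted p = 1.0e-03) and the linker histone gene H1fx at 149 and 231 TPM in Pax5 +/Δ and 34.4 and 27.3 TPM in Pax5 Δ/Δ libraries (-2.59 ± 0.21, adjusted p = 2.8e-04). Most histone messages lack a poly(A) tail, so a library of poly(A) RNA measures them incompletely.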
